A study of Mus musculus with 273 samples.

Results

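The miR-7 family of the mouse comes from 3 hairpin precursors, miR-7a-1 (mmu-mir-7a-1), miR-7a-2 (mmu-mir-7a-2) and miR-7b (mmu-mir-7b), and these 3 rows were taken by name from the 1226 hairpins in the deposited count tables. All 3 were counted in every hypothalamus library and passed the filter on low counts. MicroRNAs are short RNAs that guide Argonaute proteins to messenger RNAs, mainly by pairing of the seed near their 5′ end. miR-7 is known from neuroendocrine cells of the hypothalamus, pituitary and pancreatic islets, and it binds the circular RNA Cdr1as, which carries many miR-7 sites and is cleaved under the direction of miR-671. The question addressed here was how each hairpin was represented in hypothalamus against other tissues and whether its level followed the time of day.

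The 273 small RNA libraries came from hypothalamus (72), right-hemisphere cortex (78) and striatum (46), and liver (77) of wild type male C57BL/6J mice, an inbred strain, at 26 weeks of age. Collection ran every 3 h to 36 h. Times a day apart share a zeitgeber time (ZT); split by tissue and ZT, the libraries formed 31 groups, the smallest of 2 and the largest of 12. The labels name 79 animals, and within a tissue each library came from a different one, so n counts animals; tissues were bulk dissections, in which more cells of a type and more RNA per cell cannot be told apart.

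The mature sequences, credited to RefSeq on GRCm38.p6, show why the family is treated as 1 set and where its copies can be told apart. Capitals mark the seed, bases 2 to 8 from the 5′ end.

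miR-7a-5p: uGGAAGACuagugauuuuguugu
miR-7b-5p: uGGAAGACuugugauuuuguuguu
miR-7a-1-3p: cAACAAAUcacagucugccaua
miR-7a-2-3p: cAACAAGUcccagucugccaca
miR-7b-3p: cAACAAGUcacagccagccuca
miR-671-5p: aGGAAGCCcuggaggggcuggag

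The seed GGAAGAC occurred in 2 mature names of the RefSeq table, miR-7a-5p and miR-7b-5p. The miR-7a-5p sequence was the same at 2 loci, miR-7a-1 and miR-7a-2. Counted from 1 at the 5′ end, miR-7b-5p differed from it by A10U and by 1 extra base at the 3′ end. The opposite arms differed more. miR-7a-1-3p and miR-7a-2-3p differed at 3 positions (A7G, A10C, U21C), and the first of these lies in the seed, so that miR-7a-2-3p shares its seed AACAAGU with miR-7b-3p and not with miR-7a-1-3p. miR-7a-2-3p and miR-7b-3p differed at 4 positions, and miR-7a-1-3p and miR-7b-3p at 5.

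On GRCm38, the hairpin of miR-7a-1 lies on the minus strand at chr13:58392779-58392886, in an intron of Hnrnpk, which encodes an RNA-binding protein, on the same strand. That of miR-7a-2 lies on the plus strand at chr7:78888277-78888373 and overlaps no annotated gene, with Aen as the nearest protein-coding gene at 7481 bases. That of miR-7b lies on the plus strand at chr17:56242988-56243098, also outside annotated genes, 13712 bases from Fem1a. A hairpin count adds both arms. How the authors treated reads that match several loci was not given in the sources used here, so a read of miR-7a-5p may have been dropped, split or given to 1 copy. Over the 1047 hairpins matched to RefSeq arms, the median of mean levels in hypothalamus, in CPM (the count relative to its library's scaled total), was 0.900 for 89 hairpins with at least 1 arm shared with another locus, as in both miR-7a hairpins, and 0.237 for 958 with both arms at 1 locus. It was 0 for the 34 of those 89 with every arm shared. How shared reads were treated was not tested, so the miR-7a rows may lack reads of miR-7a-5p. Levels of miR-7a-1, miR-7a-2 and miR-7b therefore describe deposited counts of each hairpin and do not measure mature miR-7; each hairpin is compared across tissues below.

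Hypothalamus libraries held 1079380 to 3954710 counts, cortex 1164449 to 4980887, striatum 26341 to 4022070 and liver 1988671 to 5236177. A count of 0 allows 3 counts for counting error only, or 0.759 to 2.78 CPM in hypothalamus relative to unscaled library totals. Tissue identity was checked by marker miRNAs. The summed level of 12 neuronal hairpins was 3253 to 5906 CPM in hypothalamus and 29.3 to 81.7 in liver, and miR-122, the main hepatocyte miRNA, averaged 1.95 CPM in hypothalamus and 56187 in liver. Libraries that stood apart from their tissue were hypothalamus ZT0 replicate 9 and ZT9 replicate 8, cortex ZT9 replicate 9, striatum ZT21 replicate 3 and liver ZT9 replicate 4, each more than 5 median absolute deviations from its tissue's typical distance, and striatum ZT9 replicate 6 held only 26341 counts.

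The pair of hypothalamus libraries touches the family directly. Both had very high miR-375, a miRNA of pituitary and islet endocrine cells, at 96322 CPM in ZT0 replicate 9 and 61488 CPM in ZT9 replicate 8, against a median of 422 and a next highest value of 4011. All 6 hairpins of the neuroendocrine epithelial list (miR-375, miR-141, miR-200a, miR-200b, miR-200c and miR-429) were above 10 times their hypothalamus median in both, and none of the 6 had a median of 0. For miR-375 this was fixed in advance, since the pair was picked by it at that threshold. miR-182, miR-183 and miR-96, of the sensory and pineal list, were 7061, 525 and 25.7 CPM in ZT0 replicate 9. In ZT9 replicate 8 these were 5170, 433 and 21.6 CPM, against hypothalamus medians of 749, 54.8 and 1.98. The summed level of the 6 neuroendocrine epithelial hairpins was 106514 and 68498 CPM in these libraries and 244 to 4344 CPM in the other 70. The same 2 libraries ranked first and second of 72 for miR-7b (699 and 693 CPM) and for miR-7a-2 (215 and 174 CPM), while miR-7a-1 was 49.0 and 58.4 CPM, inside the range of the rest. In the cortex of these animals miR-7b was 35.4 and 41.2 CPM (cortex median 37.6) and miR-375 was 148.3 and 66.0 CPM (median 113). The second of these cortex libraries, ZT9 replicate 9, itself stood apart from its tissue. In the striatum of these animals miR-7b was 93.9 and 128.4 CPM (striatum median 73.1) and miR-375 was 418.4 and 331.2 CPM (median 181.7), above the median but inside the striatum range in both. The part of endocrine cells in the miR-7 values was not tested. For the members, tissue ratios, highest ZT means, rhythm fits and correlations in hypothalamus are also given without these libraries.

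miR-7b had the highest deposited counts of the family in hypothalamus and was far higher there than in any other tissue sampled. Each miR-7b arm occurs at 1 locus and miR-7a-5p at 2, so this order of hairpins may depend on the treatment of shared reads. Levels are CPM scaled by the trimmed mean of M values (TMM). Over 72 hypothalamus libraries the lowest, median and highest values were 163, 259 and 699 CPM, against 25.2, 37.6 and 57.0 in 78 cortex libraries, 0, 73.1 and 141.1 in 46 striatum libraries and 0, 0 and 1.07 in 77 liver libraries. The hypothalamus range overlapped none of the other 3. How many of all hairpins tested lack such overlap was not counted, here or for miR-7a-2 below. Means were 268 ± 83.6 CPM in hypothalamus (SD, n = 72; 256 ± 41.6 without the pair of high miR-375 libraries, n = 70), 38.5 ± 6.70 in cortex (n = 78), 70.5 ± 33.996 in striatum (n = 46) and 0.0594 ± 0.229 in liver (n = 77).

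miR-7a-2 followed the same order of tissues. Its lowest, median and highest values were 64.6, 89.4 and 215 CPM in hypothalamus, against 2.49, 9.77 and 27.0 in cortex, 0.822, 41.2 and 72.9 in striatum and 0, 0 and 1.95 in liver. Hypothalamus did not overlap cortex or liver, but 3 of 46 striatum libraries lay at or above the lowest hypothalamus value. Means were 93.1 ± 20.8 CPM in hypothalamus (SD, n = 72; 90.2 ± 11.2 without the pair, n = 70), 10.03 ± 4.48 in cortex (n = 78), 39.2 ± 15.7 in striatum (n = 46) and 0.101 ± 0.339 in liver (n = 77). For both hairpins the striatum and cortex ranges overlapped, and that neighbouring pair was not tested.

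miR-7a-1 did not share this pattern. Its lowest, median and highest values were 45.7, 58.4 and 76.6 CPM in hypothalamus, against 52.0, 63.8 and 88.6 in cortex, 37.0, 59.1 and 169 in striatum and 13.9, 23.7 and 46.9 in liver. The 3 brain regions overlapped throughout, with means of 58.1 ± 5.58 CPM in hypothalamus (SD, n = 72), 65.05 ± 8.66 in cortex (n = 78) and 61.5 ± 19.3 in striatum (n = 46), and liver averaged 24.6 ± 6.09 (n = 77), with 1 liver library above the lowest hypothalamus value. Within hypothalamus it was also the steadiest of the 3, with a coefficient of variation of 9.61%, against 22.3% for miR-7a-2 and 31.2% for miR-7b; without the high miR-375 pair these were 9.54%, 12.5% and 16.3%.

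**Figure D1:**
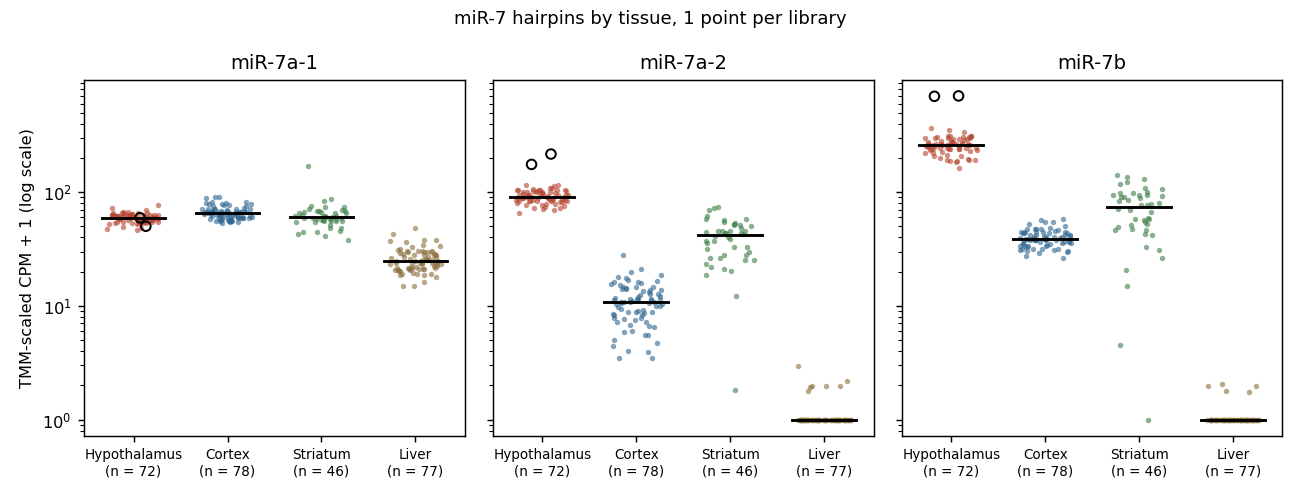
Level of each miR-7 hairpin in each library (TMM-scaled CPM plus 1, log scale) in hypothalamus, cortex, striatum and liver; bars are medians and open circles mark the 2 hypothalamus libraries with high miR-375. miR-7b in hypothalamus runs from 163 to 699 CPM with no overlap with another tissue, whereas miR-7a-1 overlaps across the 3 brain regions.

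Against cortex, 2 of the 3 members were called, both as higher in hypothalamus; over all 414 hairpins tested 28.3% were called, 17.1% as higher and 11.1% as lower. A call needed an adjusted p of at most 0.05 and an absolute log2 ratio of at least 1. The log2 ratio of hypothalamus over cortex was 2.80 ± 0.07 (SE) for miR-7b (edgeR quasi-likelihood test, Benjamini-Hochberg adjusted p = 2.85e-112) and 3.20 ± 0.09 for miR-7a-2 (adjusted p = 1.75e-106). Among the 71 hairpins called higher they ranked 14th and 12th. Without the high miR-375 pair the log2 ratios were 2.74 and 3.16. Within each of 9 library runs that held at least 3 libraries of both tissues, the log2 ratio of means was 2.57 to 3.07 for miR-7b and 2.77 to 3.55 for miR-7a-2.

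miR-7a-1 was close to level between hypothalamus and cortex. Its log2 ratio was -0.16 ± 0.04 (edgeR adjusted p = 0.000194), under the size needed for a call, and its sign depended on scaling, since DESeq2 size factors gave 0.11. That scaling moved the median of all hairpins tested to 0.32, against 0.04 with TMM. Relative to the median hairpin, miR-7a-1 was at -0.21 with TMM and -0.20 with DESeq2 size factors, while miR-7b was at 2.75 and miR-7a-2 at 3.16 with TMM. Within runs the log2 ratio of miR-7a-1 was -0.28 to 0.02, and without the high miR-375 pair it was -0.16.

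Against striatum the same 2 members were called higher in hypothalamus, beside 13.5% of all hairpins called, 8.45% as higher and 5.07% as lower. The log2 ratio of hypothalamus over striatum was 1.93 ± 0.08 for miR-7b (edgeR adjusted p = 1.18e-62; 11th of 35 called higher) and 1.28 ± 0.10 for miR-7a-2 (adjusted p = 5.29e-30; 26th). Without the high miR-375 pair these were 1.86 and 1.24. Within 8 library runs the log2 ratio was 1.44 to 2.92 for miR-7b and 0.83 to 1.47 for miR-7a-2, with 1 of the 8 runs under 1 for miR-7a-2. miR-7a-1 had a log2 ratio of -0.09 ± 0.05 (edgeR adjusted p = 0.0985), which was 0.05 with DESeq2 size factors and -0.41 to 0.31 within runs. Its ratio without the high miR-375 pair was -0.08.

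In liver, miR-7b and miR-7a-2 were nearly absent from the counts. Over all 77 liver libraries, 229847904 counts in total, miR-7b had 5 counts in 5 libraries and miR-7a-2 had 8 counts in 7 libraries. Pooled over libraries and scaled to library totals, miR-7b was 404 CPM in hypothalamus (exact 95% Poisson interval 401 to 407) and 0.0218 in liver (0.00706 to 0.0508), and miR-7a-2 was 142 in hypothalamus (140 to 143) and 0.0348 in liver (0.0150 to 0.0686). These intervals cover counting error only. miR-7a-1 had 2142 counts in liver and was counted in all 77 libraries. All 3 members were called higher in hypothalamus, beside 81.6% of hairpins called, 52.4% as higher and 29.2% as lower. The fitted log2 ratios of hypothalamus over liver were 12.19 ± 0.16 for miR-7b, 9.99 ± 0.18 for miR-7a-2 and 1.24 ± 0.04 for miR-7a-1 (edgeR adjusted p = 1.57e-184, 1.78e-147 and 3.10e-80). The first pair rests on those few liver counts. Without the high miR-375 hypothalamus libraries the ratios were 12.13, 9.95 and 1.24 in the same order. The median hairpin stood at 1.27 in this comparison with TMM and at 3.25 with library totals, and relative to that median miR-7a-1 was at -0.03 and -0.04. Hypothalamus and liver shared a library run through 1 hypothalamus library only; with run as a term, the log2 ratios were 10.42 for miR-7b, 8.26 for miR-7a-2 and 1.25 for miR-7a-1, and they rest on that library.

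Because several tissues came from the same animals, the contrasts could be read within each animal. miR-7b was higher in hypothalamus than in cortex in 72 of 72 animals, than in striatum in 43 of 43 and than in liver in 71 of 71, and miR-7a-2 gave the same counts. The smallest within-animal difference in log2(CPM + 1) between hypothalamus and cortex was 1.99 for miR-7b and 1.84 for miR-7a-2. Between hypothalamus and striatum it was 0.77 for miR-7b and 0.18 for miR-7a-2. miR-7a-1 was higher in hypothalamus than in cortex in 18 of 72 animals and than in striatum in 21 of 43.

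**Figure D2:**
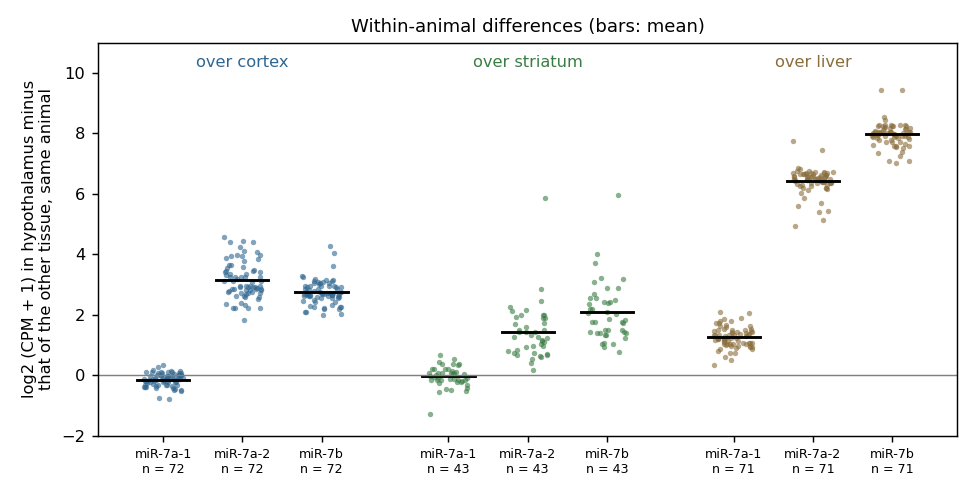
Difference in log2(CPM + 1) between hypothalamus and cortex, striatum or liver of the same animal, 1 point per animal with the mean as a bar. All points of miR-7a-2 and miR-7b lie above 0, whereas miR-7a-1 was higher in hypothalamus in 18 of 72 animals against cortex and 21 of 43 against striatum.

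The make-up of the family's counts, which needs no scaling between libraries, differed with the tissue. miR-7b took 63.3% ± 4.21 of family counts in hypothalamus (SD, n = 72), 33.8% ± 3.84 in cortex (n = 78), 39.8% ± 10.4 in striatum (n = 45, libraries with at least 20 family counts) and 0.264% ± 0.977 in liver (n = 70). miR-7a-1 took 14.3% in hypothalamus, 57.5% in cortex, 37.9% in striatum and 99.3% in liver. miR-7a-2 took 22.4% in hypothalamus, 8.75% in cortex, 22.3% in striatum and 0.408% in liver. In hypothalamus the miR-7b share ran from 50.2% to 74.9% over libraries, all above the highest cortex share of 43.0%, while the highest striatum share was 53.3%.

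The miR-7b share was 29.5 percentage points higher in hypothalamus than in cortex and 23.5 points higher than in striatum. Each difference had p = 1e-05 in a two-sided permutation test with 100000 resamples (adjusted p = 1e-05 over the 2 pairs), the smallest value these resamples can give. Within runs it was 27.0 to 33.5 points against cortex in 9 runs and 18.2 to 36.1 points against striatum in 8 runs. The share was higher in hypothalamus in 72 of 72 animals against cortex and 43 of 43 against striatum. Treatment of reads shared by miR-7a-1 and miR-7a-2 bears on these shares, and its part was not tested.

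**Figure D3:**
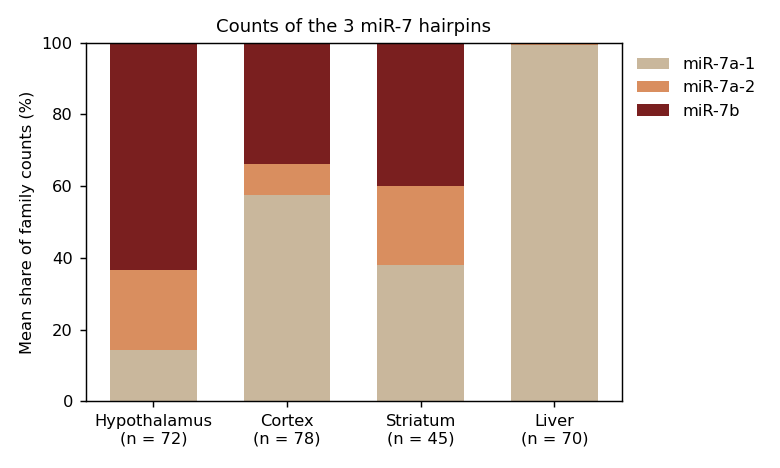
Mean share of the family's counts (%, from 0 to 100) that fell on miR-7a-1, miR-7a-2 and miR-7b in each tissue, over libraries with at least 20 family counts. miR-7b holds 63.3% in hypothalamus, 33.8% in cortex and 39.8% in striatum, and miR-7a-1 holds 99.3% in liver.

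Summing the 3 hairpins before the fit gave log2 ratios of 1.85 ± 0.05 for hypothalamus over cortex, 1.28 ± 0.06 over striatum and 4.06 ± 0.05 over liver, all called by edgeR (adjusted p = 5.06e-111, 4.04e-62 and 1.36e-181). The summed family averaged 419 ± 101 CPM in hypothalamus (SD, n = 72; 404 ± 46.8 without the high miR-375 pair, n = 70), 114 ± 12.3 in cortex (n = 78), 171 ± 48.6 in striatum (n = 46) and 24.8 ± 6.04 in liver (n = 77).

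No member had a called 24 h rhythm in hypothalamus; 0.25% of the 400 hairpins tested there were called, and 6 had an unadjusted p under 0.05. The 8 ZT means of miR-7b ran from 240 ± 35.1 CPM at ZT3 (SD, n = 11) to 309 ± 143 at ZT9 (n = 10). Those of miR-7a-2 ran from 86.8 ± 14.8 at ZT21 (n = 5) to 101 ± 27.0 at ZT9 (n = 10). Both of these peaks include the ZT9 library with high miR-375: without the pair the highest ZT mean of miR-7b was 266 ± 49.1 (n = 9) and that of miR-7a-2 was 92.9 ± 9.23 (n = 9), both still at ZT9. miR-7a-1 ran from 55.8 ± 4.13 CPM at ZT6 (n = 12) to 61.5 ± 4.45 at ZT21 (n = 5), a ratio of 1.102. Its highest ZT mean without the pair was 61.9 ± 4.39 at ZT0 (n = 11).

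The fitted peak-to-trough log2 ratio of a 24 h cosine in hypothalamus was 0.04 ± 0.13 (SE) for miR-7b, 0.09 ± 0.10 for miR-7a-2 and 0.12 ± 0.05 for miR-7a-1 (edgeR adjusted p = 0.999991 for each). The unadjusted p from edgeR was 0.963, 0.632 and 0.0687 in that order. The median over all hairpins tested was 0.11, since this measure cannot be negative. Without the high miR-375 pair the ratios were 0.05 ± 0.08 for miR-7b, 0.04 ± 0.06 for miR-7a-2 and 0.15 ± 0.05 for miR-7a-1 (edgeR adjusted p = 0.999 for each). A p that misses the threshold leaves room for a rhythm of the size of these errors.

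**Figure D4:**
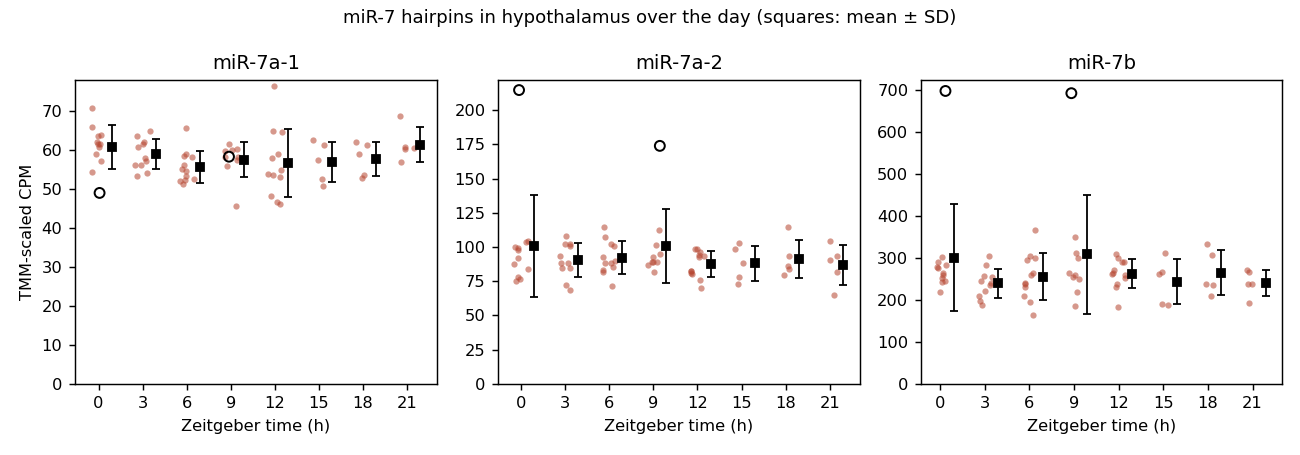
Level of each miR-7 hairpin in hypothalamus (TMM-scaled CPM) against zeitgeber time in hours; points are libraries, squares with bars are the mean and SD, and open circles mark the 2 libraries with high miR-375. The ZT means of miR-7a-1 stay between 55.8 and 61.5 CPM, and the tallest bars for miR-7a-2 and miR-7b stand at ZT0 and ZT9, which hold the circled libraries.

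In the other brain regions no member was called either, beside 0.242% of hairpins called in cortex and 0.487% in striatum. miR-7b in cortex had the lowest unadjusted p of the family, 0.0174, with a peak-to-trough log2 ratio of 0.23 ± 0.08 and a fitted peak at ZT 8.56 (edgeR adjusted p = 0.574). In striatum its ratio was 0.42 ± 0.39 (adjusted p = 0.996). In liver miR-7a-1 alone passed the filter for this fit, with a ratio of 0.07 ± 0.11 (adjusted p = 0.920), beside 4.26% of hairpins called. The difference in rhythm between hypothalamus and cortex was called for 0 of 376 hairpins by edgeR and also by DESeq2, with 12 at an unadjusted p under 0.05, and no member was called in hypothalamus against striatum, beside 0.811% of hairpins. The second passage through ZT0 to ZT12 (24 to 36 h) against the first (0 to 12 h) gave log2 ratios of -0.07 ± 0.10 for miR-7b, -0.00 ± 0.07 for miR-7a-2 and 0.03 ± 0.04 for miR-7a-1 (edgeR adjusted p = 0.994, 0.995 and 0.994). Without the high miR-375 pair these were -0.04, 0.04 and 0.03 (adjusted p = 0.979 for each). No hairpin of 361 was called there by edgeR or by DESeq2, and 4 had an unadjusted p under 0.05.

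Across the 72 hypothalamus libraries the relation between miR-7b and miR-7a-2 rested on 2 libraries. Pearson's r of log2(CPM + 1) was 0.64 (adjusted permutation p = 3e-05 over 3 pairs; unadjusted p = 1e-05, the smallest the resamples can give) and Spearman's rho was 0.28 (adjusted permutation p = 0.0491). The 2 libraries farthest from the median were those with high miR-375, and without them r was 0.27 (adjusted permutation p = 0.0785). Within 7 runs of at least 6 hypothalamus libraries r was 0.05 to 0.95, and the highest values, 0.95 and 0.88, came from the runs that held the high miR-375 libraries. Without those libraries r was -0.05 to 0.65 in the 6 runs left with at least 6 libraries. miR-7a-1 had r = -0.03 with miR-7b and -0.07 with miR-7a-2 (adjusted permutation p = 0.817 for both; rho 0.07 and 0.01, adjusted permutation p = 0.86 and 0.93). Without the 2 libraries farthest from the median of miR-7a-1, r was -0.06 and -0.10, and within runs r was -0.32 to 0.57 and -0.50 to 0.15. Without the high miR-375 pair r was 0.11 with miR-7b and 0.06 with miR-7a-2 (adjusted permutation p = 0.573 and 0.597).

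The same relations were computed in cortex and striatum after the data were seen, within a family of 18 added relations. In cortex miR-7a-2 with miR-7b gave r = 0.53 and rho = 0.50 (adjusted permutation p = 9e-05 and 6e-05, n = 78), 0.54 without the 2 farthest libraries and 0.29 to 0.93 within 7 runs. In striatum r was 0.43 and rho 0.80 (adjusted permutation p = 0.0586 and 6e-05, n = 46), and r was 0.47 without the 2 farthest; within 3 runs r was -0.33 to 0.85. Without the striatum libraries that stood apart or were shallow, r was 0.75 and rho 0.86 (adjusted permutation p = 9e-05 and 6e-05, n = 44). miR-7a-1 with miR-7a-2 had a negative relation in cortex, at r = -0.37 and rho = -0.39 (adjusted permutation p = 0.00266 and 0.00202), -0.34 without the 2 farthest and negative in 7 of 7 runs (-0.73 to -0.09). In striatum that pair gave r = -0.47 and rho = -0.07 (adjusted permutation p = 0.0391 and 0.711), 0.06 without the 2 farthest libraries and -0.33 to 0.16 within 3 runs. It was r = 0.06 and rho = 0.01 without the libraries that stood apart or were shallow (adjusted permutation p = 0.769 and 0.967), so the striatum value rests on those libraries. miR-7a-1 with miR-7b gave r = 0.00 and rho = -0.02 in cortex (adjusted permutation p = 0.978 and 0.938) and r = 0.02 and rho = 0.15 in striatum (adjusted permutation p = 0.925 and 0.413). Without the 2 farthest libraries these r were 0.06 in cortex and 0.18 in striatum, and within runs r was -0.61 to 0.20 in cortex and -0.13 to 0.52 in striatum. Levels in hypothalamus and cortex of the same 72 animals gave r of 0.08 for miR-7a-1, 0.18 for miR-7a-2 and 0.07 for miR-7b (adjusted permutation p = 0.681, 0.22 and 0.681; rho 0.15, 0.19 and 0.13, adjusted permutation p = 0.411, 0.262 and 0.411). Without the 2 farthest animals those r were 0.09, 0.21 and 0.09.

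**Figure D5:**
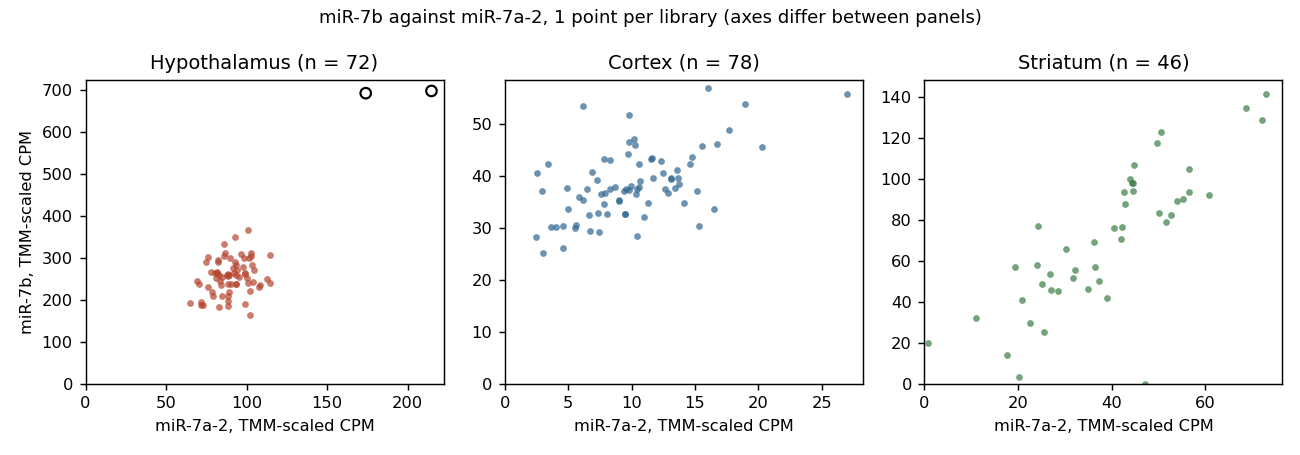
miR-7b against miR-7a-2 (TMM-scaled CPM, axes differ between panels) in hypothalamus, cortex and striatum, 1 point per library; open circles mark the 2 hypothalamus libraries with high miR-375. In hypothalamus r is 0.64 with the circled libraries and 0.27 without them, and in cortex it is 0.53.

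Among the brain regions the striatum had the largest coefficient of variation of miR-7b, 48.2%, against 31.2% in hypothalamus and 17.4% in cortex. Apart from the shallow library, at 0, the lowest values were 3.52 and 13.9 CPM in ZT3 replicates 3 and 4, where miR-138-1, a neuronal hairpin, was 712 and 744 CPM. The striatum median of miR-138-1 was 173, the hypothalamus median 53.7 and the cortex median 265, with 425 as the highest cortex value. miR-138-1 is 1 of 12 neuronal hairpins listed, and the rest are not given for these libraries. The next lowest miR-7b value was 19.7 CPM in ZT21 replicate 3, which stood apart. That library held the highest miR-7a-1 of the series (169 CPM) with 0.822 CPM of miR-7a-2. ZT6 replicate 6 and ZT12 replicate 2 followed, at 25.5 and 29.7 CPM of miR-7b, with 472 and 506 CPM of miR-138-1. In the 3 striatum libraries with most miR-7b (141.1, 134.2 and 128.4 CPM), miR-138-1 was 78.5, 136.9 and 129.95 CPM. ZT21 replicate 3, at 113 CPM, and the shallow library, at 141.5 CPM, were thus low in miR-7b without high miR-138-1. The part of dissection or cell make-up in this spread was not tested.

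miR-671, whose 5p arm directs cleavage of Cdr1as, is encoded in an exon of Chpf2 on the plus strand at chr5:24592114-24592211. It was lower in hypothalamus than in cortex, but not by the size needed for a call. Its level was 139 to 220 CPM (median 188) in hypothalamus, 197 to 360 (median 303) in cortex, 141.5 to 343.6 (median 195) in striatum and 87.7 to 423 (median 337) in liver. The log2 ratio of hypothalamus over cortex was -0.72 ± 0.03 (edgeR adjusted p = 4.96e-61), over striatum -0.16 ± 0.04 (adjusted p = 6.62e-05) and over liver -0.89 ± 0.03 (adjusted p = 9.35e-78). The order of hypothalamus and liver depended on scaling. With library totals the mean of miR-671 was 272.8 CPM in hypothalamus and 129.5 in liver, the reverse of the order with TMM. Cortex (434.3 CPM) and striatum (293.8 CPM) stayed above hypothalamus with library totals. The median hairpin in the liver comparison stood at 1.27 with TMM and at 3.25 with library totals.

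Of 11 other hairpins listed for neuroendocrine and activity-regulated roles, 3 were called higher in hypothalamus than in cortex (miR-375, miR-141 and miR-200c). Another 2 were called lower (miR-132 and miR-96) and 6 were not called, beside 17.1% of all hairpins called higher and 11.1% lower. The median log2 ratio of the 11 was -0.28, beside 0.04 for all hairpins. miR-375 had a log2 ratio of 3.75 ± 0.26 (edgeR adjusted p = 7.44e-34), and 2.27 ± 0.12 without the high miR-375 pair. Without that pair the calls of miR-141 (0.89) and miR-200c (0.22) ended, and miR-429 was called lower (-1.02). miR-132, which neuronal activity induces, had a log2 ratio of -1.96 ± 0.06 (adjusted p = 6.78e-95), and its cluster partner miR-212 had -0.75 ± 0.05.

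Against striatum 9 of the 11 were called higher, beside 8.45% of all hairpins, with a median of 1.89 beside -0.00 for all hairpins. In this comparison miR-132 (-0.89) and miR-212 (-0.08) were not called. The same count, 9, was called without the high miR-375 pair, with a median of 1.34. Against liver 3 were called higher (miR-132, miR-212 and miR-375) and 6 lower, beside 52.4% of all hairpins called higher and 29.2% lower. Their median was -1.62, beside 1.27 for all hairpins. Without the pair 3 were called higher and 8 lower. The log2 ratio over cortex was 2.80 with the pair and 2.74 without for miR-7b, and 3.75 and 2.27 for miR-375. The pair was picked by its miR-375 level, so a fall of the miR-375 ratio was fixed in advance.

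Likeness of pattern was measured as the root mean square difference of log2(CPM + 1) means over the 31 groups of tissue and ZT, each centred on its mean, among 292 hairpins with at least 10 CPM in hypothalamus. miR-770 was most like miR-7b (0.46; 196 CPM in hypothalamus, 54.2 in cortex, 99.4 in striatum, 0.0346 in liver), followed by miR-3099 (0.56), miR-298 (0.63), miR-6540 (0.73) and miR-34c (0.74). For miR-7a-2 it was miR-135a-2 (0.40; 63.6 CPM in hypothalamus, 10.6 in cortex, 21.0 in striatum, 0.0124 in liver), then miR-7080 (0.55) and miR-764 (0.56). For miR-7a-1 it was miR-125b-2 (0.14; 881 CPM in hypothalamus, 860 in cortex, 785 in striatum, 374 in liver), then miR-99b (0.17) and miR-872 (0.18). Within the family, miR-7b and miR-7a-2 differed by 0.80, miR-7b and miR-7a-1 by 2.46, and miR-7a-2 and miR-7a-1 by 1.99. For hairpins near 0 CPM in liver, log2(CPM + 1) is at its floor there. For those hairpins the measure therefore also depends on how high the brain level is.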

How the data were processed

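Per the labels' protocols, tissue was frozen on dry ice, total RNA was taken with the miRNeasy kit, checked on a Bioanalyzer, enriched for a subfraction and made into Illumina libraries. The authors deposited whole-number counts per hairpin and library, not normalized. Per the submitters' processing notes, STAR 2.7.3a, HTSeq 0.10.0 and GRCm38 (mm10) were used; trimming, miRBase release and multi-mapped reads were not given in the sources used here.

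From these counts, edgeR 4.0.16 (R 4.3.3) was run on the whole table with TMM scaling, filterByExpr, robust quasi-likelihood F tests and Benjamini-Hochberg adjustment. Tissue contrasts came from a single model of every library that also held ZT. For rhythm, cosine and sine terms (period 24 h) were fitted per tissue, and for its difference their interaction with tissue was tested; the passage model held ZT too. Shares and correlations used permutation tests with 100000 resamples. Shares were taken from the counts, and correlations used a pseudocount of 1 CPM. DESeq2 1.42.0, other scalings, no filter, library run as a term, left-out libraries and an animal block were alternatives. Animals were paired by their ID in the labels; 1 striatum label spells its ID differently and was left unpaired. A run is a stretch of consecutive library numbers with 1 L code, which gave 14 runs. The tests were tested on simulated data. Other steps ran in Python 3.11.15 (SciPy 1.17.1, numpy 2.4.6, pandas 2.3.3; plots in matplotlib 3.10.9). Positions came from GENCODE M21 (GRCm38) and sequences from RefSeq. Named were all 3 members, miR-671, every hairpin of an 11-hairpin neuroendocrine list, and the 5 hairpins most like miR-7b and the 3 most like each other member; miR-138-1 and miR-122 come from the marker lists. Members and lists were chosen with earlier results of these data known.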

Additional observations from a re-analysis of the deposited data

Results flagged for a closer look

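Of 42 combinations of a hairpin and a tissue and ZT group of 4 to 10 libraries, 8 held a library whose gap to its nearest neighbour was large for the group's range; chance flags about 1 in 20 groups. In hypothalamus at ZT9, replicate 8, the library with high miR-375, had 693 CPM of miR-7b (nearest 349, median 262) and 174 CPM of miR-7a-2 (nearest 113, median 90.8), and replicate 2 had 45.7 CPM of miR-7a-1 (nearest 55.8, median 58.4). The other high miR-375 library belongs to the ZT0 group of 12, too large for this check.

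In striatum, ZT21 replicate 3, which stood apart, had 169 CPM of miR-7a-1 (nearest 66.7), and ZT6 replicate 6 had 40.4 CPM (nearest 54.9). For miR-7a-2, ZT12 replicate 7 had 72.9 CPM (nearest 44.9) and ZT3 replicate 5 had 54.0 CPM (nearest 30.3). In cortex, ZT21 replicate 4 had 51.8 CPM of miR-7b (nearest 35.2). The part of any cause in these values was not tested.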

How the results depend on the processing

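miR-7b and miR-7a-2 kept their direction and call against cortex, striatum and liver under every alternative run. Their log2 ratios ranged from 2.74 to 3.07 and 3.16 to 3.47 over cortex, 1.83 to 2.04 and 1.21 to 1.44 over striatum, and 10.42 to 14.15 and 8.26 to 11.96 over liver. miR-7a-1 turned to 0.11 (DESeq2 size factors) and 0.12 (DESeq2) over cortex, and to 0.054 and 0.039 over striatum, as the median of all hairpins moved too. Without a filter 217, 106 and 651 hairpins were called against cortex, striatum and liver, with 1004 tested. Cortex rhythm calls numbered 8 with DESeq2. Striatum rhythm calls numbered 4 with no filter, 1 with library totals, DESeq2 or without the libraries that stood apart, and 0 with run as a term; leaving out 1 library gave 1 to 4 in striatum (4 without ZT18 replicate 1 or 2, 1 without ZT21 replicate 3) and 1 to 2 in hypothalamus (2 without ZT21 replicate 3). Rhythm differences between hypothalamus and striatum were called for 1 hairpin with DESeq2 and 0 with run as a term or without the libraries that stood apart. No member gained or lost a rhythm call in any of these; the causes were not tested. The passage ratio of miR-7a-2, near 0, turned to 0.000197 (DESeq2 size factors), 0.00632 (run as a term) and 0.0375 (without the libraries that stood apart, and without the high miR-375 pair). Without that pair the miR-7a-2 with miR-7b correlation was 0.27, and miR-7a-1 had 0.11 with miR-7b and 0.065 with miR-7a-2. With library totals the hypothalamus mean of miR-7b was 396 CPM, since TMM rescales every library.

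The pairing is by animal. With animal as a replicate block, the log2 ratios of miR-7b were 2.79 over cortex, 2.02 over striatum and 12.22 over liver, no member's call changed, and the miR-7b share differed by 29.5 points from cortex and 23.8 from striatum. Depth limits striatum most, where 3 counts are up to 113.9 CPM relative to unscaled library totals in the shallow library. In liver miR-7b and miR-7a-2 were low, so their ratios rest on 5 and 8 counts, and 1 hypothalamus library links run and liver. Striatum ZT18 had 2 libraries, and striatum ZT15 was not analysed here.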
